A study of Mus musculus with 4 samples.

Results

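Long intergenic non-coding RNAs (lincRNAs) were represented in mouse plasma small extracellular vesicles by fragments of 121 transcripts from 115 genes, out of 411 features in the tables of other RNA. A row was taken when its Ensembl transcript had the GENCODE M21 gene type lincRNA. Gm42418 and genes on chromosomes X and Y were left out by the rule, which removed 10 matched transcripts, 9 of them on chromosome X. All mice were wild type, on a normal diet, and the vesicles were collected from blood 12 h after sham surgery (2 libraries) or after surgery that produced a myocardial infarction (MI, the dying of heart muscle once its artery is blocked; 2 libraries). Differential centrifugation gave the vesicles and a Trizol and chloroform extraction their RNA. The QIAseq miRNA Library Kit used is made for short RNA, so a long transcript enters as short fragments. The kit tags each captured molecule with a unique molecular identifier (UMI), so that amplification copies are counted once. Levels are UMIs per 1000000 UMIs of all tables of a library (UPM). The smallest count in the tables is 10 UMIs, and a feature absent from a library's table (0 to 9 UMIs) was entered as 0. The labels do not say whether the 2 libraries of a group came from separate animals, and the p-values then reflect the spread of these 4 libraries alone, part of which can be technical.

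LincRNAs are transcribed from their own promoters between protein-coding genes, and many are spliced, polyadenylated and kept in the nucleus. Blood cells, platelets, vessel wall and organs all release vesicles into plasma, and the RNA inside them includes fragments of longer transcripts. Neat1 is the scaffold of nuclear paraspeckles and Malat1 accumulates in nuclear speckles. Few of the other transcripts described here have a known role, and none is given where none is known.

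The transcripts that carried the difference between the groups shared a feature of sequence that the rule did not use, an unbroken stretch of purines (A or G) or of pyrimidines (C or T) in the mature transcript. It was found after the values were seen and is described without a test. The 6 sequences shown first belong to transcripts among the 9 with the largest MI minus sham difference in level. They are the transcript strand, 5′ to 3′, from the GENCODE M21 transcript sequences, with the run in capitals and 10 transcript bases on each side in lower case.
Gm26705: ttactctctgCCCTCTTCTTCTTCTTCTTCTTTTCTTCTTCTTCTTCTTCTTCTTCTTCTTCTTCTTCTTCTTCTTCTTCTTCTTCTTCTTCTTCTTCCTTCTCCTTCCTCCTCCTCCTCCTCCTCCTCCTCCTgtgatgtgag
C430042M11Rik: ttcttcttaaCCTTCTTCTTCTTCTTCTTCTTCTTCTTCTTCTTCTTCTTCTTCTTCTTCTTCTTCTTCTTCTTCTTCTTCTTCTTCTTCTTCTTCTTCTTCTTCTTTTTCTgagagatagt
Gm26767: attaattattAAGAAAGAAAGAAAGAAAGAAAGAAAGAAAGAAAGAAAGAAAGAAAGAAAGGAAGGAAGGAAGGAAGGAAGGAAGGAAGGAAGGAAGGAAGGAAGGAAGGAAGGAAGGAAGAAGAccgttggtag
Gm43154: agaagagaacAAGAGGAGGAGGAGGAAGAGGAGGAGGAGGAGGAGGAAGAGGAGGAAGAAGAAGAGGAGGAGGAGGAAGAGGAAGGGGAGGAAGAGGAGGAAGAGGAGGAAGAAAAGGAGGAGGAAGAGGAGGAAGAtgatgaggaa
Neat1: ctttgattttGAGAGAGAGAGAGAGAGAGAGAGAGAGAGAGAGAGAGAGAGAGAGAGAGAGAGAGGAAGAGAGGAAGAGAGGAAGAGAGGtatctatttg
Gm26573: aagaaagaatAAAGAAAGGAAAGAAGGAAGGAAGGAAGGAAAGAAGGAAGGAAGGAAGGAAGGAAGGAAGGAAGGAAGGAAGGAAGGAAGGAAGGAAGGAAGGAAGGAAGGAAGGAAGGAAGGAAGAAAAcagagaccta
Gm26705 had a pyrimidine run of 124 bases, mostly of CTT units, at chr7:99261351-99261474 on the minus strand (GRCm38), and C430042M11Rik one of 102 bases at chr17:83852270-83852371 on the minus strand. The purine run of Gm26767 covered 115 bases at chr9:97072158-97072272 on the plus strand. That of Gm43154 covered 127 bases at chr6:31661829-31661955 on the plus strand. In Neat1, a run of 80 bases lay within its single exon at chr19:5832729-5832808 on the minus strand and began with GA repeats. The run of Gm26573 (chr4:147020481-147020600, minus strand) had 120 bases.

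The 3 sequences shown for contrast belong to abundant lincRNAs without a long run, with their longest run in capitals.
Gm26546: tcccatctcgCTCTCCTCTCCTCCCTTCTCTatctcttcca
4631405K08Rik: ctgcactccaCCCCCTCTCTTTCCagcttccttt
Malat1: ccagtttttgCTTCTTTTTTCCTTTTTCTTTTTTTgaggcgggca
Their longest runs had 21, 14 and 25 bases. The tables give a count per transcript and neither the position nor the strand of a fragment, so whether the counted fragments came from the runs was not tested.

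The summed level of the 121 transcripts was 2049 and 1885 UPM in sham replicates 1 and 2, and 6307 and 6978 in MI replicates 1 and 2. Both MI libraries lay above both sham libraries, with means of 1967 ± 116 (SD, n = 2) after sham and 6643 ± 474 (SD, n = 2) after MI, a 3.38-fold difference. The exact two-sided permutation test gave p = 0.333, the smallest that 2 libraries against 2 allow. The underlying counts were 3122, 1407, 5503 and 4234 UMIs, in libraries of 1523731, 746567, 872459 and 606756 UMIs. More vesicles of one origin and more fragments per vesicle cannot be told apart. As a share of other RNA UMIs, the transcripts made up 1.79% and 1.23% in the sham libraries and 3.33% and 2.51% in the MI libraries, a 1.94-fold difference. Other RNA itself was 11.5% and 15.3% of UMIs after sham and 18.9% and 27.8% after MI. Its largest feature, the 45S ribosomal precursor, had a 1.68-fold higher mean after MI.

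A few transcripts carried most of the difference. Gm6117 alone made up 17.6% of the summed MI minus sham difference of 4676 UPM, the first 3 transcripts 35.6%, the first 10 63.8% and the first 20 78.6%. The mean was higher after MI for 90 transcripts and lower for 31.

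Gm6117 (ENSMUST00000150540, chr6:31574967-31576723, plus strand) was at 179 and 162 UPM in the sham libraries and at 950 and 1033 in the MI libraries. Every MI value was far above every sham value, with counts of 273 and 121 UMIs against 829 and 627. It rose 5.81-fold (log2 fold change 2.53, SE 0.12, adjusted p = 0.00273; edgeR quasi-likelihood test, Benjamini-Hochberg adjustment over all tested other RNA features). Gm26705 (ENSMUST00000180761, chr7:99260481-99267218, minus strand) was at 108 and 87.1 after sham and at 538 and 653 after MI, a 6.09-fold rise. C430042M11Rik (ENSMUST00000180515, chr17:83851675-83854393, minus strand) was at 84.7 and 103 after sham and at 450 and 432 after MI, a 4.70-fold rise. These 3 transcripts lie on different chromosomes, and none of them has another annotated gene over it in GENCODE M21.

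Gm26767 was at 36.1 and 54.9 UPM after sham and at 311 and 290 after MI, a 6.60-fold rise that was the largest among transcripts listed in all 4 libraries. C230088H06Rik was at 49.9 and 53.6 after sham and at 295 and 285 after MI. Gm43154 was at 50.5 and 38.8 after sham and at 236 and 262 after MI. In each of these the MI libraries stood close together and well clear of the sham libraries. Gm26573 was at 61.0 and 52.2 after sham and at 214 and 247 after MI. E130120K24Rik was at 27.6 and 42.9 after sham and at 162 and 163 after MI. C230088H06Rik and Gm26573 are overlapping transcripts of chromosome 4 that share 81.8% and 81.4% of their words of 20 bases, so reads may have been split between them and they are not independent. Their log2 fold changes were 2.49 and 2.02 (edgeR adjusted p = 0.00347 and 0.00756).

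**Figure D1:**
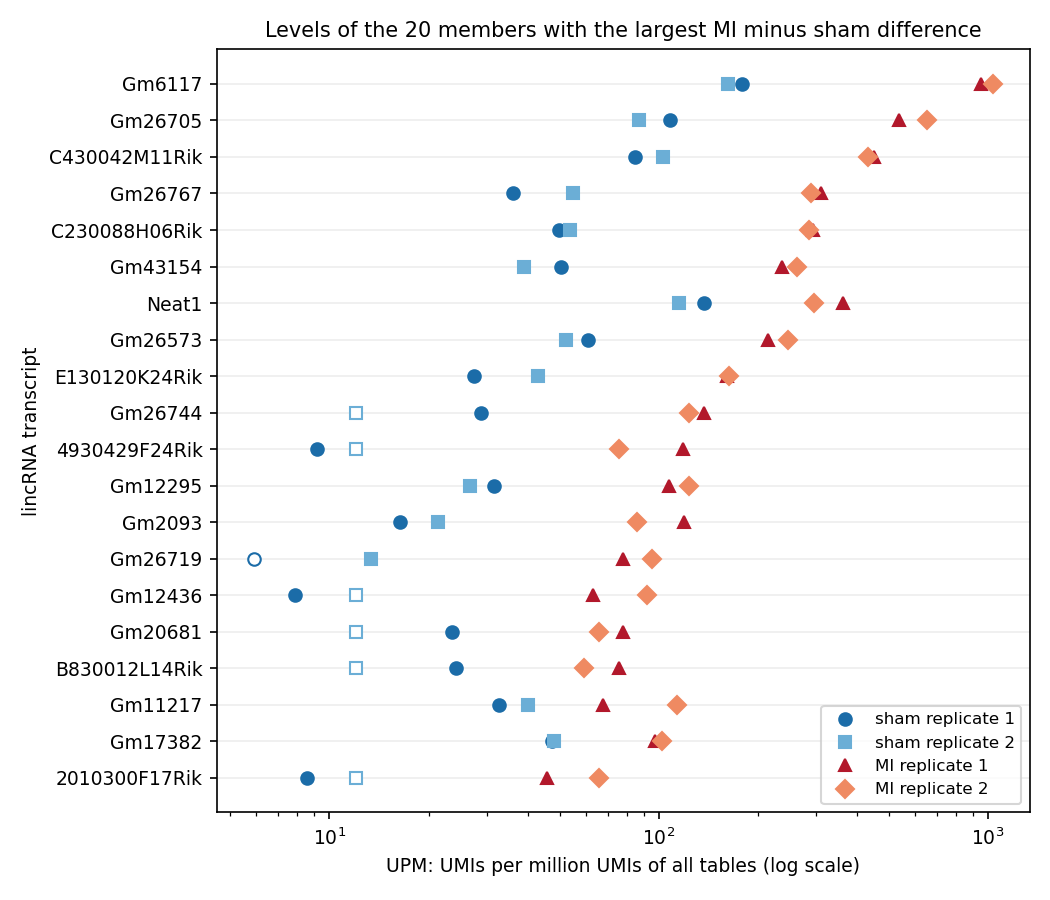
Levels of the 20 lincRNA transcripts with the largest MI minus sham difference, in UPM on a log scale, one marker per library. Open markers are unlisted values drawn at 9 UMIs, and each MI marker lies to the right of both sham markers of its transcript, as for Gm6117 with 179 and 162 after sham and 950 and 1033 after MI.

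Neat1 was the best known transcript among those that rose. It was at 137 and 115 UPM after sham and at 362 and 297 after MI, with no overlap between the groups. The rise was 2.61-fold (log2 fold change 1.38, SE 0.18, edgeR adjusted p = 0.0185), a smaller fold than in the 6 transcripts with a larger difference. Malat1, its neighbour on chromosome 19, was at 23.6 and 33.5 after sham and at 30.9 and 52.7 after MI, and these ranges overlapped (log2 fold change 0.55, SE 0.60, edgeR adjusted p = 0.548). Whether Neat1 and Malat1 differed in response was not tested.

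The low-count filter left 65 of the 121 transcripts for testing. Of these, 15 were higher after MI and 1 was lower at an adjusted p under 0.05 (edgeR quasi-likelihood test, Benjamini-Hochberg). The background was 28.8% higher and 0.913% lower among all 219 other RNA features tested, so the share of 23.1% called higher among the lincRNAs was near that of other RNA as a whole. The median log2 fold change was 2.11 among the tested lincRNAs and 1.57 among all features tested. Since the filter can keep a transcript through the group in which it is high, these figures describe only the tested transcripts. The calls depended on the scale. With scaling within the other RNA table (TMM factors, DESeq2 size factors or its own library size) edgeR called 0 of them higher, against 11, 11 and 14 at an unadjusted p under 0.05. DESeq2's Wald test also called 0 higher, with 2 at an unadjusted p under 0.05. Leaving out 1 library leaves a group of 1, which is assumed to vary like the other group. Without MI replicate 1 or without MI replicate 2, edgeR then called 0 higher, against 12 and 11 at an unadjusted p under 0.05. The log2 fold change of Gm6117 was 2.60 and 2.47 in these fits (edgeR adjusted p = 0.0532 and 0.0542), close to 2.53 with all libraries. Without sham replicate 1 or sham replicate 2, 30 and 22 transcripts were called higher.

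Among the 15, 12 were listed in all 4 libraries. Beside the 9 described so far, these were Gm12295 at 31.5 and 26.8 UPM after sham and 108 and 124 after MI (log2 fold change 1.98, edgeR adjusted p = 0.0197), Gm2093 at 16.4 and 21.4 against 119 and 85.7 (2.44, edgeR adjusted p = 0.026), and Gm17382 at 47.3 and 48.2 against 97.4 and 102 (1.06, edgeR adjusted p = 0.0435). The groups did not overlap in any of the 3. On within-table scales Gm17382 changed sign, with log2 fold changes of -0.14 under TMM factors and -0.52 under DESeq2 size factors, and Neat1 did so under DESeq2 size factors (-0.20). The other 3 calls, named after their values were seen, were Gm26584, Gm26514 and Gm26510, which were unlisted in both sham libraries. Against 9 UMIs in each sham library they were at least 1.68-fold, 2.28-fold and 2.26-fold higher after MI. With unlisted values entered at 9 UMIs these 3 calls were lost (edgeR adjusted p = 0.294, 0.111 and 0.14), while 37 of the 65 lincRNAs were then called higher, against 102 of all 219 features tested (46.6%).

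**Figure D2:**
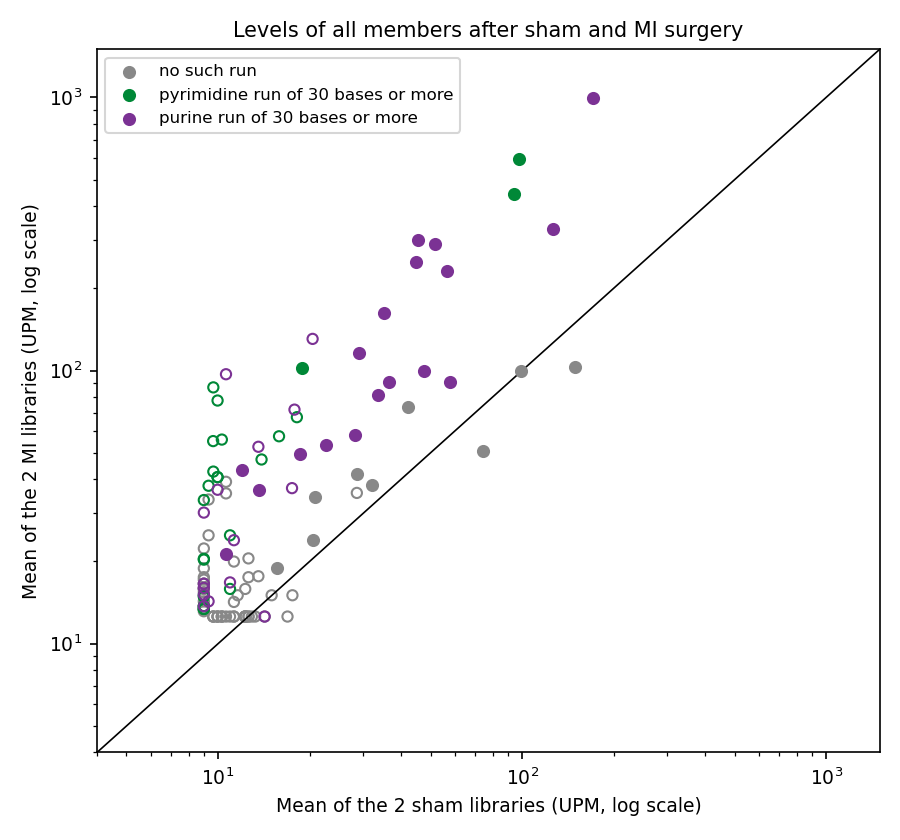
Mean level after MI against mean level after sham for the 121 lincRNA transcripts, in UPM on log axes, coloured by the class of the longest run. Open circles are transcripts unlisted in at least 1 library, drawn with 9 UMIs there, and the line marks equal means. Transcripts with a run lie mostly above the line. Those without one lie on both sides of it, some of them well above, as Gm26858 does.

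Of the 121 transcripts, 58 (47.9%) held a purine or pyrimidine run of 30 bases or more, and these carried 96.9% of the summed difference. The 33 with a purine run as their longest were at 950 and 884 UPM after sham and at 3755 and 3919 after MI, a 4.19-fold difference. The 25 with a pyrimidine run were at 335 and 238 after sham and at 1719 and 2080 after MI, a 6.63-fold difference. Both classes were higher in each MI library than in either sham library. The 63 transcripts without a run were at 765 and 762 after sham and at 833 and 979 after MI. Their 1.19-fold difference came to 3.05% of the total. Without Gm6117, Gm26705 and C430042M11Rik, the remaining transcripts with a run still differed 4.41-fold.

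**Figure D3:**
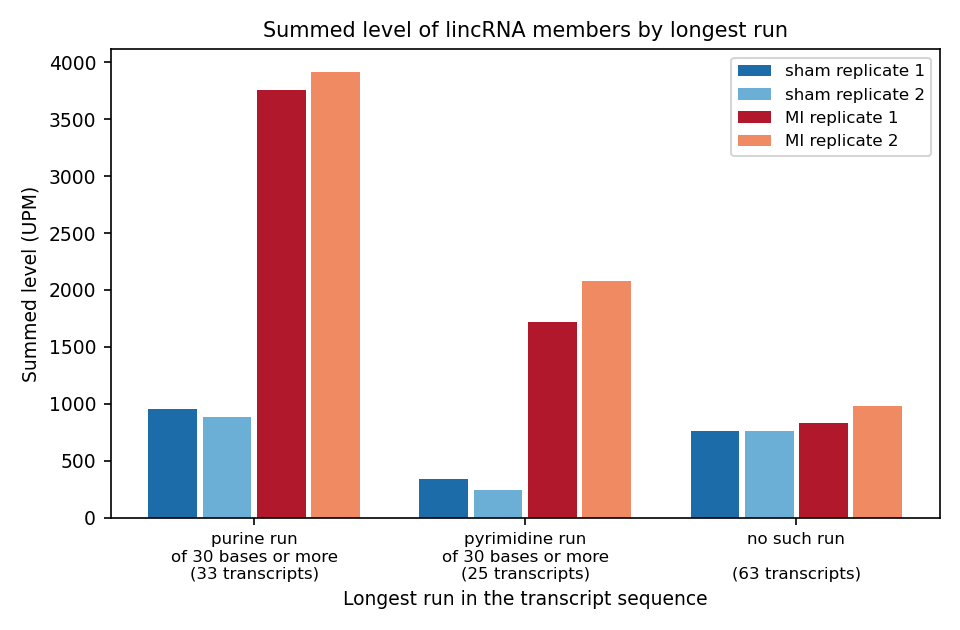
Summed level of the lincRNA transcripts in UPM in each library, by the class of the longest run in the transcript, with bars starting at 0. The bars of both run classes are taller after MI, for purine runs 3755 and 3919 against 950 and 884, and those without a run range from 762 to 979.

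The ratio of UMIs with a run to UMIs without one was taken within each library, where no scale between libraries enters. It was 1.68 and 1.47 in the sham libraries and 6.57 and 6.13 in the MI libraries. The means were 1.58 ± 0.15 (SD, n = 2) after sham and 6.35 ± 0.31 (SD, n = 2) after MI, 4.03 times apart, and the groups did not overlap. The ratio shows unequal change of the classes and does not show that either stayed the same. Per other RNA UMI, the transcripts without a run were lower after MI (log2 difference -0.56) and those with a run higher (1.45).

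Transcript by transcript, the same split was present. All 15 transcripts called higher held a run, out of 45 tested with a run. That share was not far from the 28.8% called higher among all tested features. These 15 include Gm26584, Gm26514 and Gm26510, which passed the filter through the MI libraries alone and were lost with unlisted values at 9 UMIs. Of the 20 tested without a run, 0 were called higher by edgeR, and 0 at an unadjusted p under 0.05. This depended on entering unlisted values as 0. With unlisted values at 9 UMIs, some without a run passed too. They were Gm26858, Gm26870 (ENSMUST00000181572) and the shorter Mir124a-1hg transcript (edgeR adjusted p = 0.0174, 0.023 and 0.0276). Of the 30 listed in all 4 libraries, the 21 with a run had a median fold of 3.61, from 1.57 to 6.60, and 19 of them were above 2. The 9 without a run had a median fold of 1.19, from 0.682 to 1.75. Among these 30, 23 were higher in both MI libraries than in both sham libraries and 2 were lower, against 73.7% and 4.39% of all 114 other RNA features listed in all 4. Over all 121, 52 were higher without overlap and 3 lower, against 39.2% and 1.7% of all 411 features. The shares without overlap were thus near those of all features, among the 30 and among the 121.

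**Figure D4:**
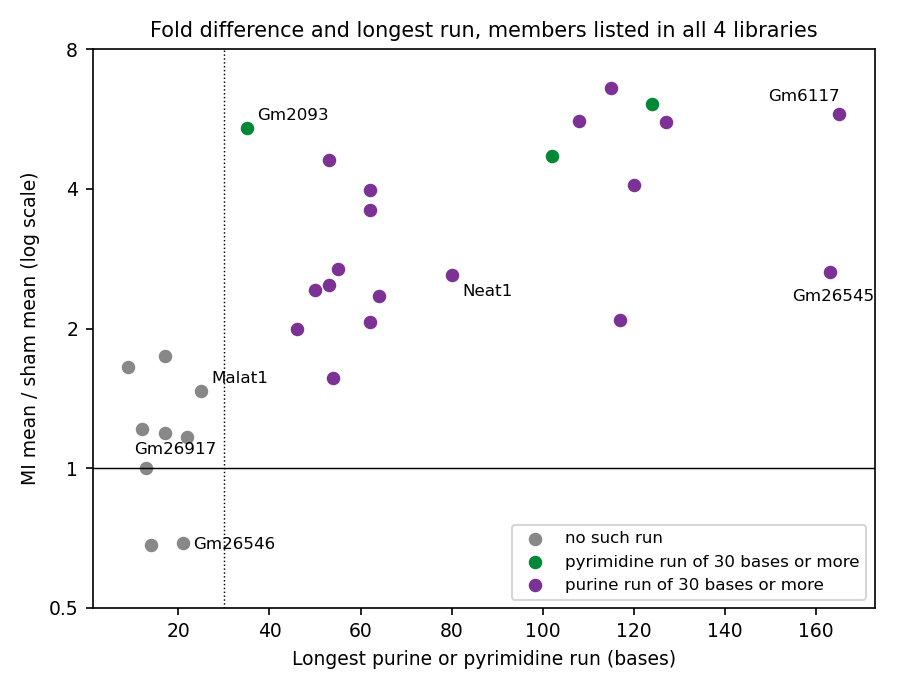
Fold difference (mean after MI over mean after sham, log scale) against the longest purine or pyrimidine run in bases, for the 30 lincRNA transcripts listed in all 4 libraries. The dotted line marks 30 bases, and the solid line equal means. The 9 transcripts to the left range from 0.682 to 1.75 and the 21 to the right from 1.57 to 6.60.

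A longer run did not go with a larger fold in every case. Gm26545 had a run of 163 bases and was at 14.4 and 22.8 UPM after sham and at 49.3 and 49.4 after MI, a 2.65-fold difference that did not pass (edgeR adjusted p = 0.191). It passed in the fit of features listed in all 4 libraries (edgeR adjusted p = 0.04) and with unlisted values at 9 UMIs (edgeR adjusted p = 0.0447), fits in which unlisted zeros do not enter the dispersion. Gm17382 had a run of 117 bases and a fold of 2.09. Gm2093, with a pyrimidine run of 35 bases, differed 5.42-fold. Close to the limit of 30 bases, Gm26889 had exactly 30 and was listed only in sham replicate 1, at 16.4, and was the single transcript with a run whose mean was lower after MI. Gm12031 and 4732490B19Rik had 33 and were listed in 1 MI library each, and just outside it Gm26883 had 27. With a limit of 20 bases the transcripts with a run carried 98.4% of the difference and with a limit of 40 bases 91.8%.

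Long runs were more frequent among the listed transcripts than in the annotation. A transcript can be listed through its MI libraries alone, as Gm26668 and Gm27048 were. The shares below are therefore not independent of the difference between the groups. Of all 7439 lincRNA transcripts of GENCODE M21, 7.15% held a purine or pyrimidine run of 30 bases or more. Because the listed transcripts were longer (median 2314 bases against 836), the share was also taken at like length. Between 1457 and 3220 bases, 34 of 61 listed transcripts (55.7%) and 187 of 1598 unlisted ones (11.7%) held such a run. All of the first 20 transcripts by difference held one, 1 of the 31 with a lower mean after MI did, and so did 20.8% of the 48 listed in only 1 library. The search read only the transcript strand, so that a pyrimidine run is a purine run of the opposite strand.

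The other long non-coding transcripts of the same tables (antisense, processed transcript and the like) split in the same way by summed level. Of 179 such transcripts, 83 held a run, and their summed level was 1517 and 1644 UPM after sham and 7914 and 8315 after MI, a 5.14-fold difference. The 96 without a run were at 1637 and 1342 after sham and at 1555 and 1826 after MI, a 1.13-fold difference. Transcript by transcript the split was less sharp than in the lincRNAs. Among those listed in all 4 libraries, 23 of 33 with a run had a fold above 2, with folds from 0.592 to 12.3. Without a run it was 3 of 14, with folds from 0.771 to 2.73. The 11 lincRNAs that lacked a purine or pyrimidine run but held a GT or AC run of 30 bases or more, a class also chosen after the values were seen, were at 193 and 209 after sham and at 148 and 124 after MI. Gm26546 made up most of this class. Without it, an alternative chosen after the data were seen, the other 10 were at 71.5 and 32.1 after sham and at 30.9 and 34.6 after MI, and the groups overlapped.

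Several transcripts with a run were unlisted in sham replicate 2 or 1, and these did not pass the test. Gm26744 was at 28.9 UPM in sham replicate 1, unlisted in sham replicate 2 and at 138 and 124 after MI. 4930429F24Rik was at 9.19 in sham replicate 1, unlisted in sham replicate 2 and at 118 and 75.8 after MI. Gm26719 was unlisted in sham replicate 1, at 13.4 in sham replicate 2 and at 77.9 and 95.6 after MI. In each, both MI values lay above the listed sham value and above the 9 UMIs an unlisted one can hold. Entering unlisted values at 9 UMIs made Gm26744, 4930429F24Rik, Gm26719, Gm12436, Gm20681 and B830012L14Rik pass, with edgeR adjusted p from 1.12e-05 to 0.00629. In all, 22 transcripts were listed in sham replicate 1 and both MI libraries but not in sham replicate 2. Sham replicate 2 listed 42 of the 121 transcripts, sham replicate 1 84, MI replicate 1 76 and MI replicate 2 79, so that sham replicate 2 listed the fewest. Listing starts at 6.56 UPM in sham replicate 1, the deepest library, and at 13.4, 11.5 and 16.5 in the others.

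Abundant transcripts with a run and a smaller difference did not pass either. Gm11412 was at 58.4 and 57.6 UPM after sham and at 63.0 and 119 after MI. Gm11217 was at 32.8 and 40.2 after sham and at 67.6 and 114 after MI. Gm12829 was at 13.8 and 53.6 after sham and at 75.6 and 87.3 after MI. All 3 were higher in both MI libraries than in both sham libraries, with 1.57, 2.48 and 2.42 as folds. With unlisted values at 9 UMIs, Gm11217 and Gm12829 passed (edgeR adjusted p = 0.0137 and 0.0352). Gm26659 was at 14.4 and 30.8 after sham and at 53.9 and 52.7 after MI. C130071C03Rik, one exon of which holds the miRNA gene Mir9-2, was at 24.3 and 32.1 after sham and at 57.3 and 59.3 after MI.

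The abundant transcripts without a run were called in neither direction. Gm26546 was the most abundant of them, at 121 and 177 UPM after sham and at 117 and 89.0 after MI, without overlap (log2 fold change -0.52, SE 0.29, edgeR adjusted p = 0.291). 4631405K08Rik was at 72.8 and 76.3 after sham and at 68.8 and 33.0 after MI (log2 fold change -0.54, SE 0.46, edgeR adjusted p = 0.457). Gm26917, classed here as ribosomal RNA-like, was at 68.9 and 130 after sham and at 99.7 and 98.9 after MI, a log2 fold change of 0.01. Whether its counts came from ribosomal RNA was not tested. Neither group stood apart for Gm26917, and none of the 3 passed the test. DESeq2's Wald test, which scales within the other RNA table, called Gm26546 lower (log2 fold change -2.06, adjusted p = 0.0308). Gm26905 was at 17.1 and 46.9 after sham and at 36.7 and 39.6 after MI. A930038B10Rik was at 41.3 and 42.9 after sham and at 77.9 and 69.2 after MI (edgeR adjusted p = 0.156). It was counted at 1.04 reads per UMI, where the median of the 121 transcripts was 9.10. It shared a value under 2 reads per UMI with 5 others, and none of the 6 held a run.

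F630040K05Rik was the only transcript called lower, at 15.1 and 18.8 UPM after sham and unlisted in both MI libraries. It was at least 1.35-fold lower against 9 UMIs in each MI library, and with unlisted values entered at 9 UMIs the call was lost (edgeR adjusted p = 0.594). E130018O15Rik, at 11.8 and 13.4 after sham, was the other transcript listed in both sham libraries and in neither MI library. Gm16630 was listed only in sham replicate 2, at 18.8. A530013C23Rik was at 17.7 and 17.4 after sham, unlisted in MI replicate 1 and at 19.8 in MI replicate 2. Gm26809 was at 9.84 and 14.7 after sham, unlisted in MI replicate 1 and at 21.4 in MI replicate 2. These 5 transcripts, none with a run, had at most 27 UMIs in a library. In the opposite direction, 5 transcripts were listed in both MI libraries and in neither sham library. Beside the 3 called ones these were Gm26668, at 16.0 and 51.1 after MI, and Gm27048, at 12.6 and 47.8, both named after their values were seen.

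A list of 34 characterised non-coding RNA genes was searched among the 121 transcripts alone. It held 4 of their genes, and 1 of the 2 that were tested, Neat1, was higher. Genes of another gene type or on chromosome X could not be found this way, so the rest were not shown to be unlisted. Miat, named for a human association with myocardial infarction, was listed only in MI replicate 1, with 16 UMIs, and Pantr1 only in sham replicate 1, with 19 UMIs. Mirt1, a transcript named for its induction in infarcted mouse heart and looked up after the values were seen, was listed only in MI replicate 2, with 15 UMIs. None of the 3 had counts that allow a comparison between the groups. Of 31 host genes of miRNAs and snoRNAs, searched for in the same way, 4 were found as 5 transcripts. Host genes of another gene type were not searched for. Of the 3 transcripts tested, 0 passed in either direction by edgeR, also at an unadjusted p under 0.05.

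Host genes are of interest because a fragment of the host can be the small RNA itself or a piece of its precursor. Mir155hg, whose exon holds Mir155, was at 8.53 and 22.8 UPM after sham and at 14.9 and 23.1 after MI. miR-155-5p, counted separately, was at 24.3 and 37.5 after sham and at 22.9 and 41.2 after MI, and both overlapped between the groups. The longer Mir124a-1hg transcript, which holds a pyrimidine run of 60 bases, was at 7.88 in sham replicate 1, unlisted in sham replicate 2 and at 28.7 and 52.7 after MI. The shorter one, without a run, was at 9.19 in sham replicate 1, unlisted in sham replicate 2 and at 29.8 and 41.2 after MI, and reads may be split between the 2 transcripts. With unlisted values at 9 UMIs, both Mir124a-1hg transcripts passed (edgeR adjusted p = 0.0137 and 0.0276). The miRNA miR-124-3p was unlisted in all 4 libraries, and so was miR-9-5p, the miRNA of Mir9-2 in C130071C03Rik. The Mir124a-1 gene lies over an exon of the longer Mir124a-1hg transcript and outside the shorter one. Snhg12 was listed only in MI replicate 2, with 13 UMIs, and Snhg20 in sham replicate 1 and MI replicate 2, with 16 and 18 UMIs. One exon of 4631405K08Rik holds Mir205, and miR-205-5p was at 153 and 205 after sham and at 107 and 85.7 after MI, without overlap and in the same direction as its host. Whether the host counts hold miRNA reads was not tested.

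The transcript names do not always mark the source of a fragment. Of the 121 transcripts, 43 had a protein-coding gene over an exon, 9 had a small RNA gene over an exon and 46 had no other annotated gene over them. Gm26744 is antisense to Map3k13 and Gm26546 antisense to Gnptab, and the sources used here do not say whether the counting used strand. Runs of this kind recur across the genome, so that a fragment from a run can match many loci, and how such reads were assigned is not stated either.

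Markers of possible vesicle sources did not all go the same way. Of 5 muscle miRNAs on the marker list, 4 were higher in both MI libraries than in both sham libraries. The share of all miRNAs that did so was not counted, so these 4 have no background to be read against. The 39.2% of all 411 other RNA features that did so belongs to another class of RNA and cannot serve as one. The cardiac miR-208a-3p was unlisted in both sham libraries and at 134 and 105 UPM after MI. miR-133a-3p was at 166 and 123 after sham and at 910 and 979 after MI, miR-133b-3p at 43.3 and 34.8 against 298 and 338, and miR-1a-3p at 254 and 150 against 311 and 267. The skeletal muscle miR-206-3p was lower after MI, at 1830 and 1717 against 1134 and 925. Of 3 red cell miRNAs, miR-451a was at 281 and 214 after sham and at 503 and 303 after MI, and miR-486a-5p at 8114 and 7731 against 12356 and 9562. The groups overlapped for the other, miR-144-3p, at 97.8 and 60.3 after sham and at 66.5 and 95.6 after MI. The liver miR-122-5p was lower, at 8650 and 7564 after sham and at 2824 and 2681 after MI. miR-223-3p of neutrophils and platelets was lower too, at 3480 and 2727 against 2020 and 2398, and the endothelial miR-126a-3p overlapped, at 3817 and 2624 against 3353 and 3553. The 45S precursor was at 96724 and 130809 after sham and at 151858 and 229943 after MI. Their part in the lincRNA difference was not tested.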

How the data were processed

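UMI counts and read counts per feature of 4 libraries were used as the authors deposited them, per the file headers, with no normalization recorded. The submitters' aligner, reference and build were not given in the sources used here. Of 409 Ensembl transcripts in the other RNA tables, 397 matched GENCODE M21 (GRCm38), which gave gene types, positions and transcript sequences. The members, lists and tests were chosen with earlier results of these data known, and the run classes after the values were seen.

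All 411 other RNA features were fitted with edgeR 4.0.16 (R 4.3.3; quasi-likelihood F-test, two-sided). Low counts were removed by filterByExpr (group design, minimum count of 10 and total of 15), and p-values were adjusted by Benjamini-Hochberg with a threshold of 0.05. Library size was the UMIs of all tables, without further scaling factors. The SE of a log2 fold change is its size over the root of F. Levels have an SD over 2 libraries. Runs are the longest unbroken stretch of A and G, or of C and T, on the transcript strand, and the run sequences of 2 transcripts are not reported here. The transcripts named were the 30 with the highest mean level, the 5 with the largest difference and the 5 with the smallest p in each direction, and those on the lists.

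Replicates differed by more than sampling noise (chi-square per degree of freedom 7.10 for sham and 10.9 for MI, over 114 features), so none was counted as a copy. The common dispersion was 0.589 in the main fit, where unlisted values were 0, against 0.0762 for features listed in all 4 libraries. These fits hold different sets of features, so the part of the zeros in this difference was not tested. The fit was also run on simulated data (5 sets of 411 features, 200 changed, dispersion 0.0762). It called 1.9% of unchanged features, 22.91% of those changed 2-fold and 67.4% of those changed 4-fold. Changes were drawn up or down at random there, while the reported calls were mostly higher. These shares therefore do not measure the error of the reported calls. Alternatives were other scalings, DESeq2 1.42.0, other filters, read counts, a replicate block, unlisted values at 9 UMIs, features listed in all 4 libraries, transcripts summed by gene and leaving out each library.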

Additional observations from a re-analysis of the deposited data

How the results depend on the processing

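Counts below are other RNA features higher, then lower after MI, followed by lincRNA transcripts higher, then lower. The reported counts were 63, 2, 15 and 1. They were 0, 0, 0 and 0 with TMM factors, DESeq2 size factors or library size within the other RNA table (edgeR; lincRNAs at an unadjusted p under 0.05 numbered 11, 11 and 14 higher and 5, 5 and 3 lower). They were 5, 9, 0 and 2 by DESeq2's Wald test, 56, 3, 13 and 2 with TMM factors over all tables, 77, 1, 23 and 0 without a filter, and 71, 5, 17 and 2 with 10 UMIs in every library of 1 group. Read counts gave 27, 0, 8 and 0, unlisted values at 9 UMIs 102, 0, 37 and 0, and features listed in all 4 libraries 52, 0, 15 and 0. Leaving out 1 library gave 0 to 77 features higher and 0 lower, and 0 to 30 lincRNAs higher and 0 lower. With either MI library left out, 0 passed, and without sham replicate 1 or sham replicate 2, 30 and 22 lincRNAs were higher. Scaling within the table moved the median log2 fold change of all tested features from 1.57 to 0.26 (TMM), -0.05 (DESeq2 size factors) and 0.67 (library size), and other causes of the changes were not tested.

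Same-numbered libraries deviated together (correlation 0.37 over 114 features). The second replicates also share a read-set tag of unknown meaning. What else same-numbered libraries share beyond the number is not stated. The replicate block gave 35, 0, 9 and 0.

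The log2 difference of the summed level, 1.76, was 0.95 per other RNA UMI and 1.49 with unlisted values at 9 UMIs. That of transcripts with a run, 2.25, was 2.06 with a limit of 20 bases, 1.45 per other RNA UMI, 2.00 with unlisted values at 9 UMIs and 2.08 for transcripts listed in all 4 libraries. That of transcripts without a run, 0.25, was 0.56 with a limit of 40 bases, 0.004 for those listed in all 4 libraries and -0.56 per other RNA UMI. Leaving out each library gave 1.68 to 1.83, 2.16 to 2.35 and 0.13 to 0.36.

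Of 564 log2 fold changes of named transcripts under alternatives, 49 changed sign, 5 of them in called transcripts. Under TMM factors within the table they were A930038B10Rik (-0.39), C130071C03Rik (-0.12), Gm11412 (-0.61), Gm17382 (-0.14), Gm26905 (-0.83), Gm26917 (-1.12), Malat1 (-0.64) and Mir155hg (-0.83). Under DESeq2 size factors, then the Wald test, they were A930038B10Rik (-0.76, -0.76), C130071C03Rik (-0.51, -0.51), Gm11217 (-0.29, -0.29), Gm11412 (-0.98, -0.98), Gm12829 (-0.20, -0.21), Gm17382 (-0.52, -0.51), Gm26545 (-0.13, -0.13), Gm26659 (-0.27, -0.28), Gm26905 (-1.24, -1.25), Gm26917 (-1.52, -1.53), Malat1 (-1.03, -1.04), Mir155hg (-1.25, -1.26) and Neat1 (-0.20, -0.19). Under library size over the table they were Gm11412 (-0.22), Gm26905 (-0.43), Gm26917 (-0.71), Malat1 (-0.27) and Mir155hg (-0.46). The rest were Gm26917 under TMM factors over all tables (-0.21), Gm26905 with read counts (-0.028), and Gm26809 with unlisted values at 9 UMIs (0.37). Leaving out 1 library in turn gave -7.21 to 0.17 for A530013C23Rik, -6.70 to 0.80 for Gm26809, -0.30 to 1.15 for Gm26905, -0.39 to 0.53 for Gm26917 and -0.27 to 1.14 for Mir155hg.

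Low counts limit the transcripts near 10 UMIs, and UMIs cover counting error only.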
